A study of Mus musculus with 7 samples.

Results

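Broad peaks of RNA POLII, the enzyme that transcribes protein-coding genes, were chosen by their length of 2500 bp or more in the list of POLII replicate 2. There were 909 of them among the 31796 peaks of that list, or 2.86%, and the other 30887 are called the shorter peaks. All samples came from iMOP cells, immortalized multipotent otic progenitors of the mouse, a line made from SOX2-expressing cells of the inner ear with a *c-Myc* retrovirus and grown as floating otospheres in medium with B27 and 20 ng/ml of bFGF. The C-MYC of the retrovirus and that of the cells themselves cannot be told apart in these lists. By PCR of transcripts, the paper found that nearly all *c-Myc* transcript was endogenous weeks after infection. No sample was an untreated or differentiated control. Chromatin immunoprecipitation sequencing (ChIP-seq) used 3 antibodies, which bind RNA POLII (clone 4H8), C-MYC (N-262) or SOX2 (clone 6F1.2), and each antibody had 2 biological replicates. The input DNA sample was not analysed here.

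RNA POLII often pauses just past a promoter, and at strongly transcribed genes it can also be detected along the gene body, so the width of a POLII peak can reflect a wide promoter region, several start sites or polymerase spread along a gene. C-MYC is a helix-loop-helix factor that binds with its partner MAX, mostly at promoters where POLII is already present. SOX2 is an HMG-box factor that marks neurosensory progenitors of the inner ear and binds at both promoters and enhancers. Positions are given in mm9, the build in the submitters' processing notes. The lists name no genes, and no annotation of mm9 was used, so the peaks were placed by position and not assigned to genes.

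A peak is a stretch holding more sequence tags than background, and its summit is the position of the highest signal. The 6 lists held 26637 to 53528 peaks with 1705241 to 4488517 tags in peaks. Total reads per library are unknown, and the tags in called peaks are the only measure of depth. POLII replicate 1 shared few peaks with replicate 2, since only 16.5% of the replicate 2 peaks were overlapped by its peaks by at least 1 bp. SOX2 replicate 1 also stood apart from its own replicate. In broad peaks with a single summit of each library, its summits lay a median of 28 bp from the POLII replicate 2 summit, but 117.5 bp from the summit of SOX2 replicate 2 (n = 666 and 382 peaks). The C-MYC replicates lay 14.5 bp from each other (n = 616 peaks). Whether any library was exchanged with another was not tested, so the values of POLII replicate 1 and SOX2 replicate 1 hold for the libraries that carry those labels. Values are therefore mostly given per library. The ranges in parentheses after a share are 95% Wilson confidence intervals, which cover counting error over peaks and not the spread between cultures.

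The broad peaks had a median length of 3013 bp, and the longest reached 20492 bp. Of the 909, 442 were under 3000 bp, 340 were from 3000 to under 4000 bp and 127 were longer, with 8 of at least 10 kb. Together they made up 9.69% of the length of all POLII replicate 2 peaks and held 12.9% of the tags in them, 578604 tags. The median broad peak held 166 POLII tags per kb (5th to 95th percentile 80.1 to 346), against 75.5 (41.6 to 304) in the shorter peaks. Peaks of 1500 to under 2500 bp held a median of 156 tags per kb, so the tag density rose mainly below 1500 bp of length. The fold enrichment, the ratio of a peak over the caller's background, ran the other way, with a median of 6.35 in broad peaks, 8.11 in those of 1500 to under 2500 bp and 7.95 in all shorter peaks. Length, tags and fold enrichment come from the list that chose the peaks, so these are descriptions with no test. At the limit itself, the 10 shortest broad peaks (2501 to 2505 bp) held a median of 146 tags per kb, and the 10 longest of the shorter peaks (from 2493 bp) held 164.

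**Figure D1:**
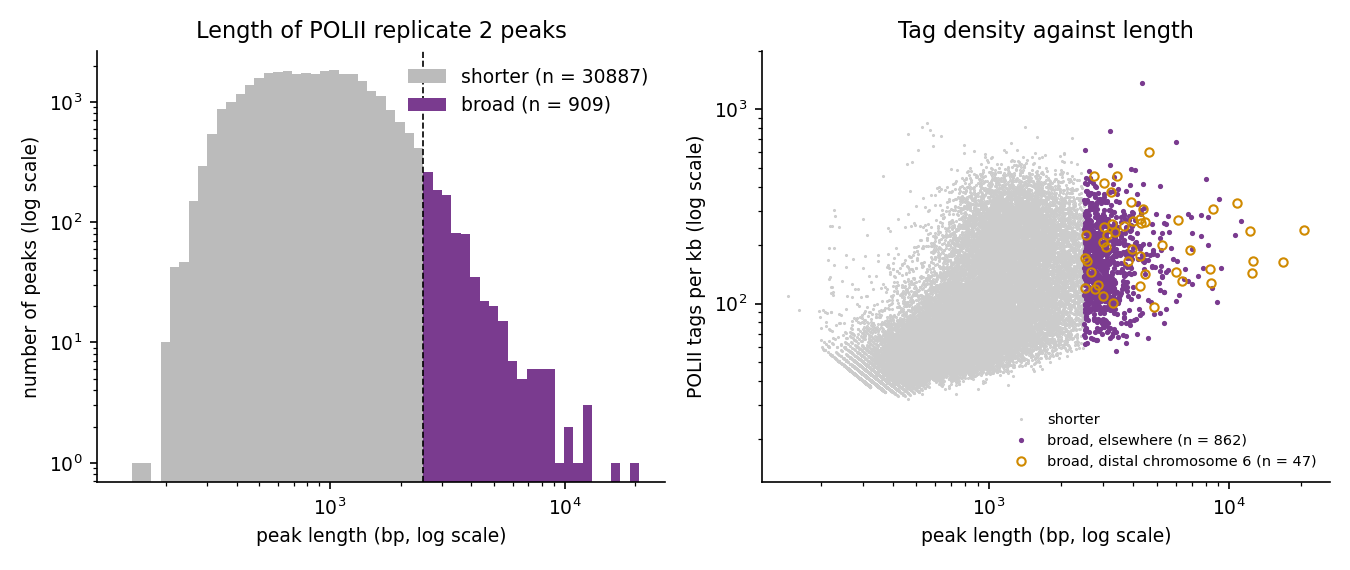
Length of the POLII replicate 2 peaks (left, number of peaks on a log scale) and POLII tags per kb against length (right, both axes on a log scale), with each dot a peak. The broad peaks right of 2500 bp continue the tail of the shorter peaks, and 6 of the 8 of at least 10 kb are on distal chromosome 6 (circles).

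The POLII summit lay away from the centre of many broad peaks. It fell in the middle 50% of the length in 60.8% of broad peaks and in 90.4% of shorter ones. In 356 broad peaks (39.2%) it lay in the outer 25% at either end, 202 at the end with the lower coordinate and 154 at the other. In the median broad peak, POLII enrichment reached 902 bp from the summit to the nearer end and 2108 bp to the farther end. Which end is upstream cannot be told without strand.

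A large part of the longest peaks lay in 7 Mb at the end of chromosome 6. Its POLII replicate 2 peaks ran from chr6:142178281 to 148972838, and the area had been picked from these data for its high tag share and is treated apart. It held 47 broad peaks among its 154 POLII replicate 2 peaks, or 30.5%, against 2.72% elsewhere, and it contained 9 of the 20 longest peaks and 6 of the 8 of at least 10 kb. Broad peaks there were longer, with a median of 3971 bp against 2993 bp for the 862 others, and had a median fold enrichment of 3.57 against 6.53. C-MYC replicate 1 had a summit in 85.1% of them and replicate 2 in 83.0%. Both SOX2 replicates had a summit in 34.0%, but their peaks differed. The SOX2 replicate 1 peaks with summits there had a median of 801 bp and covered 6.87% of the length of these 47 peaks. Those of replicate 2 had a median of 4438.5 bp, all 16 were themselves at least 2500 bp long, and its peaks covered 42.1%. What sets this area apart was not tested.

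The longest peak, chr6:146298405-146318896, held 4925 POLII tags over 20492 bp. Its POLII summit lay 1154 bp from one end. The summits of C-MYC replicates 1 and 2 lay 23 and 50 bp from it, that of SOX2 replicate 1 lay 23 bp away and the closest of POLII replicate 1 lay 22 bp away, while SOX2 replicate 2 had none. Except for 2 other summits of POLII replicate 1, the remaining length held no summit of any library. The longest peak outside the area, chr7:52374226-52385404, held 2960 tags over 11179 bp and had a second cluster of summits. C-MYC replicate 1 had summits 359 and 4144 bp from the POLII summit, with 486 and 566 tags, and SOX2 replicate 2 had summits 327 and 4167 bp from it, with 116 and 155 tags. C-MYC replicate 2 and SOX2 replicate 1 had summits only near the POLII summit, at 361 and 9 bp. Another pattern was seen at chr7:4743890-4751563, where all 4 C-MYC and SOX2 libraries had 1 summit near the same end, 5, 10, 4 and 278 bp from the POLII summit, and none along the rest of its 7674 bp. Of the 20 longest peaks, 18 had the POLII summit in the outer 25% of the length. A C-MYC summit of both replicates was found in 10 of the 11 outside distal chromosome 6 and in 4 of the 9 inside it. Over all broad peaks, both replicates had one in 73.7% outside that area and in 78.7% inside it. No C-MYC or SOX2 summit was found in 2 of the 20, both on distal chromosome 6, a share close to that of all broad peaks (88, or 9.68%). Over all POLII replicate 2 peaks the share was 16.3%.

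**Figure D2:**
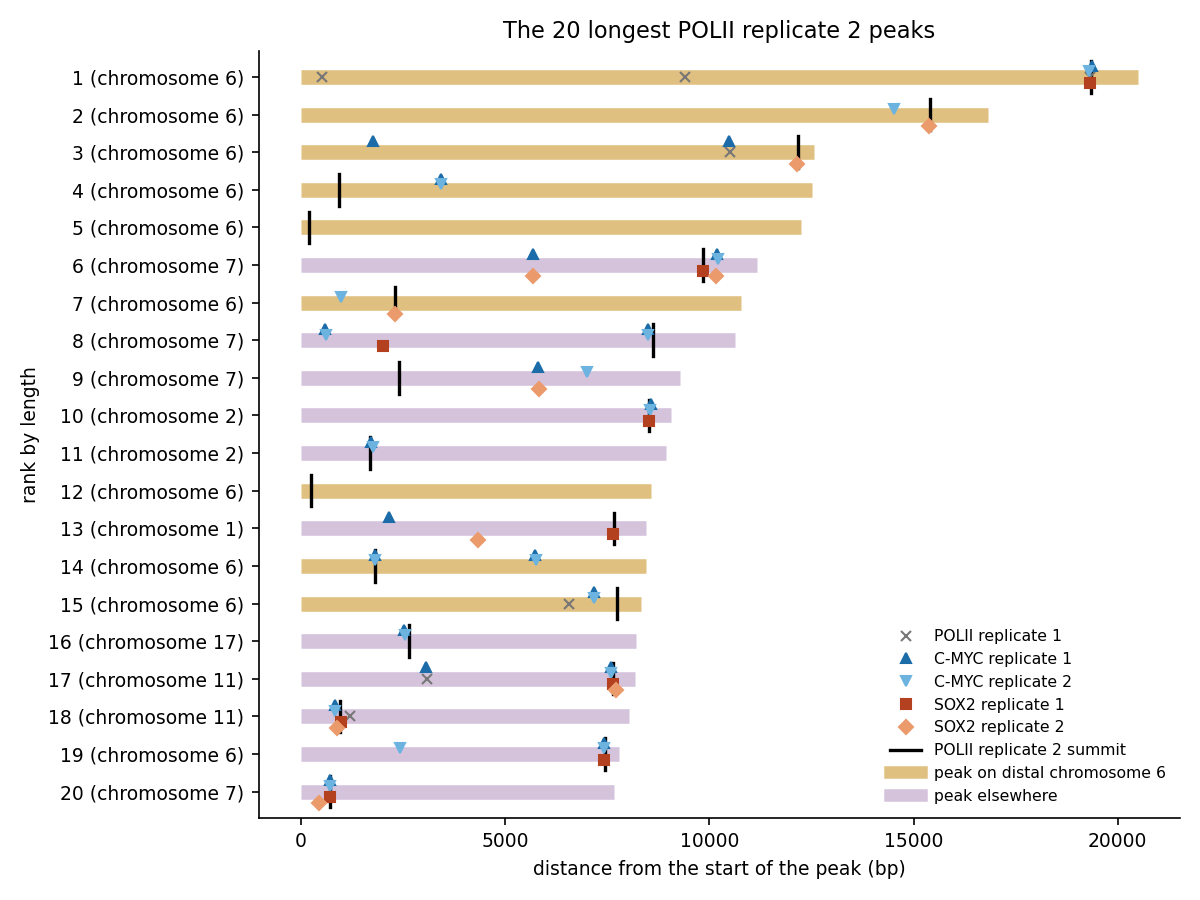
Maps of the 20 longest POLII replicate 2 peaks, drawn from the start of each peak in bp, with the POLII replicate 2 summit as a black bar and the summits of the other libraries as symbols. In 18 of the 20 the POLII summit is in the outer 25% of the length, and many C-MYC and SOX2 symbols lie close to that bar.

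Most broad peaks contained a C-MYC summit, and at most a few held more than 1. A summit of C-MYC replicate 1 was inside 711 of the 909 (78.2%, 75.4 to 80.8) and of replicate 2 inside 703 (77.3%, 74.5 to 79.9), a mean of 77.8% ± 0.62 (SD, n = 2). Over all POLII replicate 2 peaks, the shares were 69.6% and 70.1%. SOX2 replicate 1 had a summit inside 687 (75.6%, 72.7 to 78.3) and replicate 2 inside 473 (52.0%, 48.8 to 55.3), against 68.1% and 51.7% of all peaks, so the SOX2 mean of 63.8% ± 16.6 (SD, n = 2) had a wide spread between replicates. Beside peaks of 1500 to under 2500 bp the order turned in 4 of 4 libraries, since these held a summit in 83.9% and 83.5% for C-MYC and in 86.5% and 60.6% for SOX2. A longer peak can hold a summit by its length alone. Broad peaks held 0.245 and 0.241 C-MYC summits per kb in replicates 1 and 2, and shorter peaks 0.751 and 0.756. For SOX2 the densities were 0.230 and 0.156 in broad peaks and 0.733 and 0.557 in shorter ones. The number of summits therefore did not grow in proportion to the length. A called peak has only 1 summit however long it is, and factor peaks in broad POLII peaks were themselves longer. Summits per kb therefore do not measure how much of the length was bound. At least 2 C-MYC summits were found in 42 broad peaks (4.62%) in replicate 1 and in 38 (4.18%) in replicate 2, with 23 in common, and they lay a median of 1908 and 1876 bp apart. The same was found in 0.499% and 0.408% of shorter peaks and in 2.22% and 1.99% of those of 1500 to under 2500 bp. SOX2 had at least 2 summits in 21 and 9 broad peaks (2.31% and 0.990%), with 2 in common, and in 0.308% and 0.0939% of shorter peaks.

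The broad peak with the most C-MYC summits was chr6:147254825-147260827 in distal chromosome 6, with 3 in replicate 1 and 2 in replicate 2. In replicate 1 they held 170, 147 and 47 tags and lay 8, 3042 and 4235 bp from the POLII summit. In replicate 2 they held 202 and 184 tags at 15 and 2759 bp. For SOX2, chr11:114529622-114536348 had 2 summits in each replicate. Those of replicate 1 lay 25 and 4342 bp from the POLII summit with 230 and 399 tags, and those of replicate 2 lay 72 and 4711 bp from it with 123 and 179 tags. C-MYC had a summit only near the POLII summit of this peak, at 38 and 42 bp, with 292 and 325 tags. The same SOX2 count was reached at chr6:135312387-135315320, outside distal chromosome 6, where the summits lay 30 and 1990 bp from the POLII summit in replicate 1 and 270 and 1998 bp in replicate 2.

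To give long and short peaks the same number of bases, summits were also counted within 500 bp on either side of the POLII summit. Broad peaks then had fewer factor summits than shorter ones. C-MYC replicate 1 had a summit in this window at 57.1% of broad peaks (53.9 to 60.3) and at 67.6% of shorter peaks (67.1 to 68.1), and replicate 2 at 56.9% (53.6 to 60.1) and 68.1% (67.5 to 68.6). Over all peaks the shares were 67.3% and 67.8%. SOX2 replicate 2 had a summit at 37.5% (34.4 to 40.7) and 50.2% (49.6 to 50.7), and 49.8% of all peaks. SOX2 replicate 1 differed by less than its counting error, with 65.5% (62.3 to 68.5) and 67.0% (66.4 to 67.5), and 66.9% of all peaks. The difference, broad minus shorter, was -8.96 percentage points ± 5.05 (SD, n = 4 C-MYC and SOX2 libraries) and lower in 4 of 4 libraries. The exact permutation test over the libraries, two-sided by sign flips, gave p = 0.13, the smallest that 4 libraries allow, and the Benjamini-Hochberg adjusted p was also 0.13 over 8 comparisons. Those 8 also covered summits inside the peak, in the middle 50% of its length and within 100 bp of the POLII summit. The 4 libraries are replicates of different antibodies, all counted on the same POLII replicate 2 peaks. Their SD therefore mixes antibody and replicate differences, and the test is not over independent replicates of the same measurement. Against peaks of 1500 to under 2500 bp, whose tag density was close to that of the broad peaks, the difference was -14.9 points ± 0.84 (SD, n = 4) and lower in 4 of 4 libraries (same exact test, p = 0.13). That comparison did not rest on SOX2 replicate 1, where the difference was -14.8 points.

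The share of peaks with a summit in the window did not fall steadily with length. The share was highest from 1000 to under 1500 bp, at 81.0% and 80.6% for C-MYC and 58.7% for SOX2 replicate 2, and SOX2 replicate 1 had 82.3% there. From 2500 to under 3000 bp the C-MYC shares were 61.5% (56.9 to 66.0) and 62.0% (57.4 to 66.4), and from 3000 to under 4000 bp 50.6% (45.3 to 55.9) and 50% (44.7 to 55.3). In the 127 peaks of 4000 bp or more they were 59.1% (50.4 to 67.2) and 57.5% (48.8 to 65.7), with intervals that overlap those of the class before. SOX2 replicate 1 went from 70.1% to 64.4% and 52.0% over the same 3 classes, and SOX2 replicate 2 from 39.6% to 32.6% and 43.3%.

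**Figure D3:**
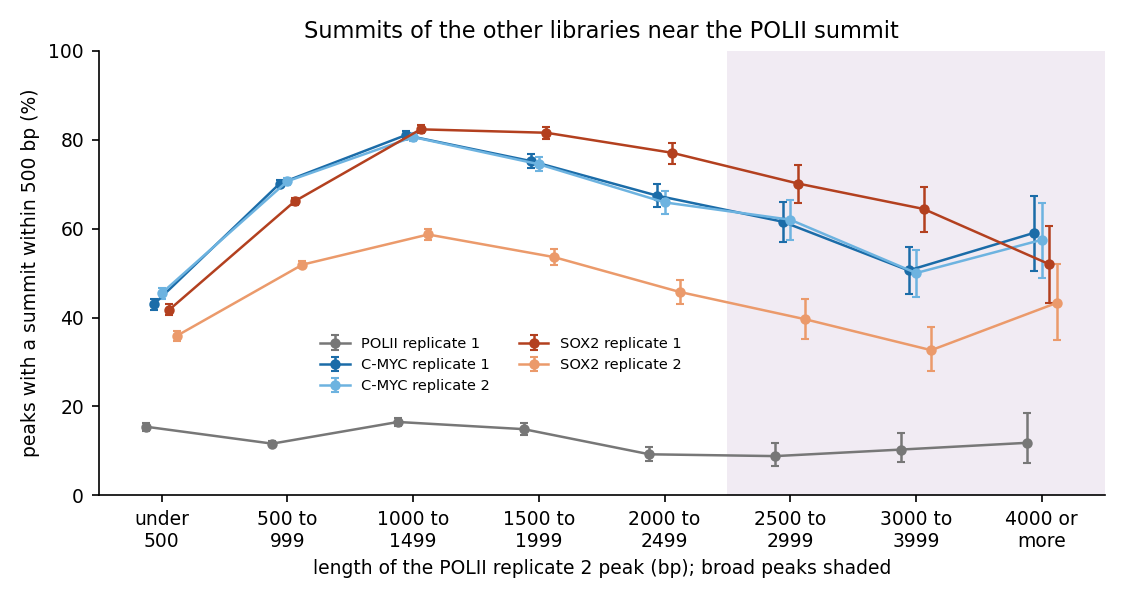
Share of POLII replicate 2 peaks (%) with a summit of each other library within 500 bp of the POLII summit, by length of the peak in bp, with 95% Wilson intervals as bars and the broad peaks shaded. The 4 C-MYC and SOX2 lines peak from 1000 to under 1500 bp and are lower from 2500 to under 4000 bp, while POLII replicate 1 stays under 20% throughout.

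C-MYC and SOX2 peaks with a summit in a broad POLII peak were also long. Their median length was 1891 and 2085 bp for C-MYC replicates 1 and 2 and 2244 and 1560 bp for the SOX2 replicates, against 919, 989.5, 992 and 901 bp in shorter POLII peaks. In POLII peaks of 1500 to under 2500 bp the medians were 1540, 1627, 1605 and 1325 bp. Within the broad class, factor peak length hardly followed POLII peak length (Spearman rank correlation 0.024, 0.024, 0.095 and 0.130, against 0.703, 0.703, 0.716 and 0.600 in shorter peaks). Factor peaks in broad POLII peaks held 104 and 108 tags per kb for C-MYC and 111 and 78.5 for SOX2, against 70.6, 72.3, 69.9 and 65.4 in shorter ones. As for POLII, their fold enrichment was lower, at 7.47 and 7.42 against 11 and 10.8 for C-MYC, and 6.98 and 5.29 against 9.56 and 6.60 for SOX2. The direction was the same in all 4 libraries. Of these factor peaks, 25.9%, 31.8%, 38.8% and 15.98% were themselves at least 2500 bp long, and 1.07%, 1.67%, 1.37% and 0.651% of those in shorter POLII peaks. Seen from the other lists, the C-MYC lists held 563 and 774 peaks of 2500 bp or more, of which 35.0% and 30.6% overlapped a broad POLII peak. Of the 666 and 232 such SOX2 peaks, 41.7% and 34.5% did. Conversely, 21.7%, 26.1%, 30.6% and 8.80% of the broad POLII peaks were overlapped by a broad peak of these libraries, against 0.839%, 1.32%, 1.03% and 0.385% of the shorter POLII peaks.

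C-MYC peaks covered 45.3% and 47.7% of the length of the broad peaks in replicates 1 and 2, and SOX2 peaks 49.0% and 27.9%. Of the length of shorter peaks they covered 65.2% and 67.5% for C-MYC and 66.3% and 46.6% for SOX2. Over all broad peaks, more than 50% of the length thus lay outside the called peaks of any single factor library. Without distal chromosome 6 this no longer held for SOX2 replicate 1, whose peaks covered 52.8% of the length. There the C-MYC peaks covered 46.3% and 48.9%, and those of SOX2 replicate 2 covered 26.6%.

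Along the broad peaks, factor summits were spread over most of the length. The middle 50% of the length held 56.0% (52.4 to 59.5) and 55.5% (51.9 to 59.0) of the C-MYC summits, and 61.0% of the summits of each SOX2 replicate. In shorter peaks it held 85.6% to 88.9% over the 4 libraries. The summits of POLII replicate 2 itself, on whose length the peaks were chosen, differed by as much between the classes (60.8% and 90.4%), so the difference is given as a description. The exact sign-flip test was run on it among the 8 comparisons (p = 0.13 against shorter peaks), and no conclusion is drawn from it. An even spread over the length would put 50% of the summits in the middle 50%. In the outermost 10% at either end lay 4.80% to 7.15% of the summits over the 4 libraries, against 0.447% to 1.05% in shorter peaks.

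Relative to the POLII summit, the spread was much smaller than the length of the peaks. The C-MYC summits in broad peaks lay a median of 172.5 and 159 bp from the POLII summit, SOX2 replicate 2 at 159.5 bp and SOX2 replicate 1 at 29 bp. In shorter peaks the medians were 56, 56, 63 and 32 bp, so SOX2 replicate 1 was the only library whose median was not larger in broad peaks. Within 100 bp of the POLII summit lay 42.2% (38.7 to 45.7) and 42.1% (38.6 to 45.7) of the C-MYC summits, 70.5% (67.0 to 73.7) of those of SOX2 replicate 1 and 42.1% (37.8 to 46.6) of those of SOX2 replicate 2. Farther than 1000 bp away lay 17.1% and 16.6% for C-MYC and 9.60% and 14.3% for SOX2, against 0.342% to 0.608% in shorter peaks, where such a distance is seldom possible.

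In the broad peaks whose POLII summit lay in an outer 25% of the length, the factor summits lay at the same end. That 25% held 62.4% (56.7 to 67.7) and 63.2% (57.6 to 68.6) of the C-MYC summits in these peaks, from 295 and 291 summits, and 76.5% (71.0 to 81.3) and 64.9% (57.6 to 71.6) of the SOX2 summits, from 260 and 174. The 25% at the opposite end held 9.83% and 9.62% for C-MYC and 6.15% and 5.17% for SOX2. In POLII replicate 1, which the choice of peaks did not use, 56.5% (44.8 to 67.6) of 69 summits lay in the 25% with the replicate 2 summit. In shorter peaks with an off-centre POLII summit, the C-MYC shares at that end were 38.5% and 38.9% and the SOX2 shares 51.1% and 38.3%, and POLII replicate 1 had 23.1%. The same distance in bp takes up a larger share of a shorter peak. Without distal chromosome 6, the broad peaks had 62.5% and 63.0% for C-MYC, 75.8% and 63.0% for SOX2 and 54.7% for POLII replicate 1.

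**Figure D4:**
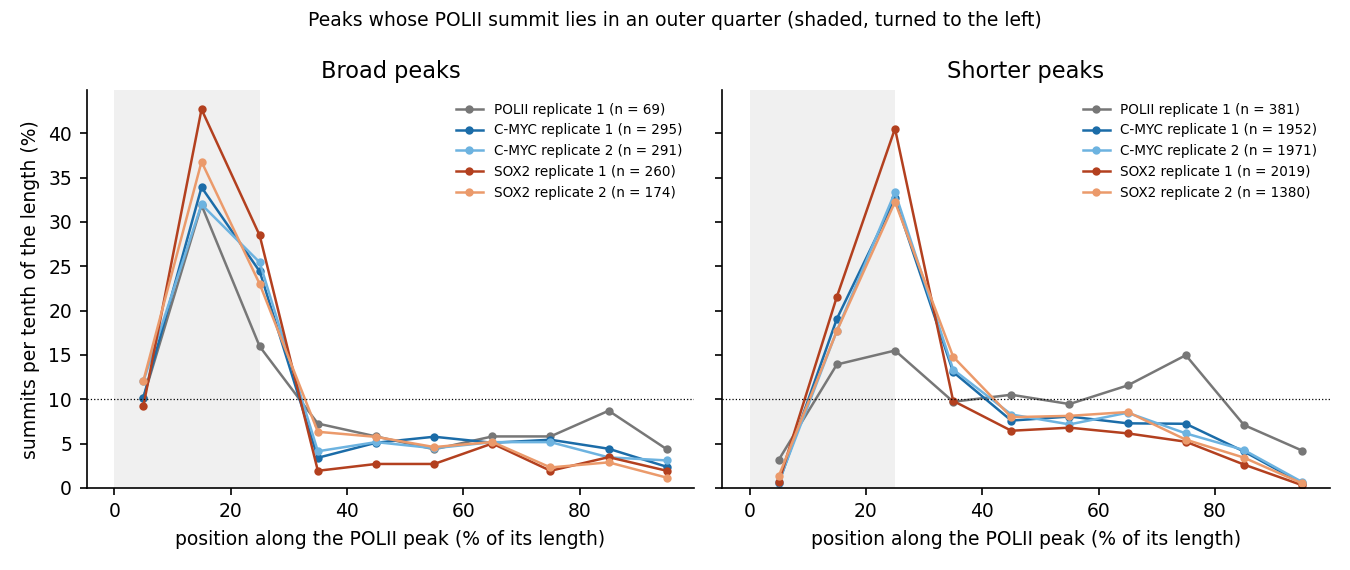
Position of summits along POLII replicate 2 peaks whose POLII summit lies in the outer 25% of the length, each turned so that this end is on the left (x axis, % of the length; y axis, % of the summits of a library per 10% of the length; the dotted line marks an even spread). In broad peaks the 5 libraries are highest in the shaded 25%, and in shorter peaks they are highest at its inner border.

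The 4 C-MYC and SOX2 libraries were counted together for each broad peak. All 4 had a summit inside 380 of them (41.8%, 38.6 to 45.0), against 39.9% of all POLII replicate 2 peaks. No summit of any of the 4 was inside 88 (9.68%, 7.92 to 11.8), against 16.3% of all peaks. Among peaks of 1500 to under 2500 bp, the shares were 55.6% and 7.03%, so the order depended on which shorter peaks the broad ones were set beside. A C-MYC summit of both replicates was inside 672 broad peaks (73.9%). The same held for 66.2% of shorter peaks and 81.7% of those of 1500 to under 2500 bp. Of the 672, 55 had no SOX2 summit in either replicate, 15 of them on distal chromosome 6. The 55 were 6.05% of the broad peaks (4.68 to 7.79), against 5.04% of shorter peaks. Among peaks of 1500 to under 2500 bp the share was lower, at 2.17% (1.78 to 2.65). The opposite, SOX2 in both replicates and C-MYC in neither, was found in 10 (1.10%, 0.599 to 2.01). It was found in 1.93% of shorter peaks and in 0.841% of those of 1500 to under 2500 bp. POLII density followed the number of libraries, with a median of 204 POLII tags per kb where all 4 had a summit, 171 where 3 had, 134 where 2 had, 129 where 1 had and 100 where none had. The same order was seen in peaks of 1500 to under 2500 bp, from 199 with all 4 to 77.7 with none, and in all shorter peaks, from 116 to 53.4. The median length hardly differed, 2909.5 bp with all 4 and 3031 bp with none. Of the 88 peaks without a factor summit, 4 were overlapped by the edge of a factor peak, and the nearest factor summit was a median of 4143 bp from their ends.

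Broad peaks lay near each other more often than shorter peaks lay near a broad one. Another broad peak was within 20 kb of 156 broad peaks (17.2%, 14.9 to 19.7), against 4.62% of all POLII replicate 2 peaks and 9.11% of those of 1500 to under 2500 bp. Broad peaks also had more POLII peaks of any length nearby, 84.9% having at least 1 within 20 kb and 65.2% of the shorter peaks. Among the peaks with such a neighbour, 20.2% of broad and 6.52% of shorter peaks had a broad one. The 156 peaks formed 74 runs, of which 68 held 2 broad peaks and 6 held more, and 8 of the runs with 17 peaks were on distal chromosome 6. Without that area the share was 16.1%. The smallest gap between neighbouring broad peaks was 11 bp. Whether some runs are a single enriched stretch called as separate peaks was not tested. The longest runs held 4 broad peaks. In the run at chr11:69208292-69234042, with 3263 POLII tags in 14634 bp of broad peaks, all 4 peaks held a summit of both C-MYC replicates and of SOX2 replicate 1, and 2 held one of SOX2 replicate 2. In that at chr14:31982656-32020565, with 1399 tags in 12017 bp, 2 of the 4 held a summit of each C-MYC replicate and of SOX2 replicate 1, and none of SOX2 replicate 2.

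Across chromosomes, the share of POLII replicate 2 peaks that were broad ran, leaving out chromosome Y with 0 of only 2 peaks, from 0.852% on chromosome X (6 of 704, 0.391 to 1.85) to 4.86% on chromosome 6 (87 of 1789). Without the distal area, chromosome 6 had 2.45%, and chromosome 11 was then highest, with 99 of 2253 (4.39%, 3.62 to 5.32). Chromosomes 7, 10, 17 and 19 had from 3.54% to 3.69%, with no clear order among them. Chromosome 13 was the lowest autosome at 1.41% (21 of 1485, 0.927 to 2.15). No test was made over chromosomes, which differ in gene density and hold a single list each.

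**Figure D5:**
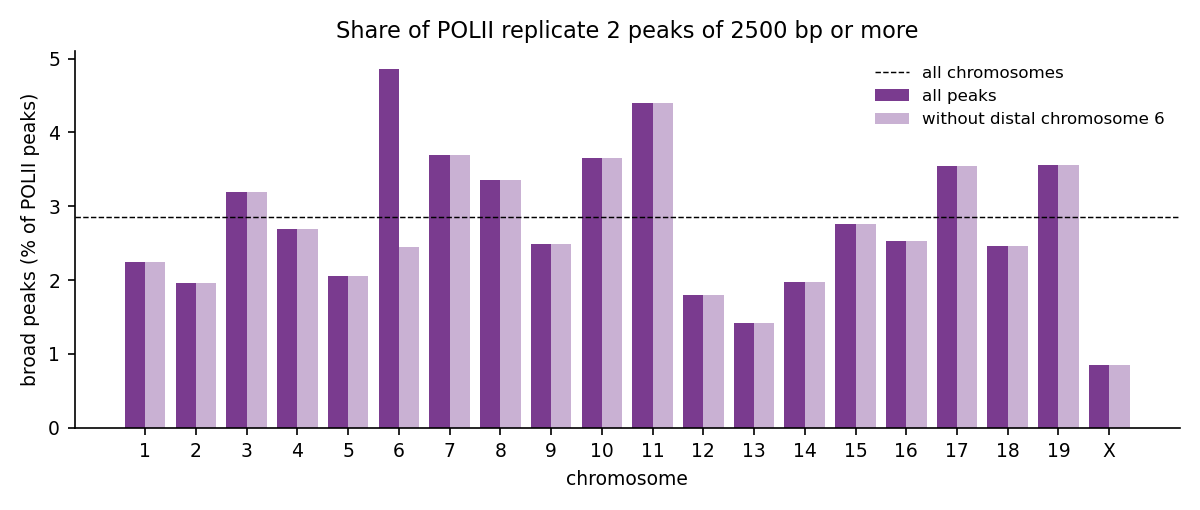
Share of the POLII replicate 2 peaks on each chromosome that were at least 2500 bp long (%, bars from 0), with and without the area on distal chromosome 6; the dashed line is the share over all chromosomes, 2.86%. Chromosome 6 drops from 4.86% to 2.45% without that area, chromosome 11 is then highest, and X is lowest apart from Y, which had only 2 peaks.

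In POLII replicate 1, most broad peaks were not found. A replicate 1 peak overlapped 177 of the 909 (19.5%, 17.0 to 22.2), against 16.4% of the shorter peaks and 20.4% of those of 1500 to under 2500 bp (19.2 to 21.6). Its summit lay inside 171 (18.8%), against 14.8% of all replicate 2 peaks. Within 500 bp of the replicate 2 summit the order turned, with 89 broad peaks (9.79%, 8.02 to 11.9) against 13.8% of shorter peaks (13.4 to 14.1) and 13.6% of all. On distal chromosome 6, 23 of the 47 broad peaks were overlapped (48.9%, 35.3 to 62.8), and 17.9% elsewhere (15.5 to 20.6). Replicate 1 had 313 peaks of at least 2500 bp, which overlapped 5 broad peaks of replicate 2 (0.550%, 0.235 to 1.28) and 0.191% of the shorter ones (0.148 to 0.246). The replicate 1 peaks with a summit in broad peaks had a median length of 833 bp and held a median of 38 tags. With 1 library on each side, no test over samples can be made.

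The 177 broad peaks seen in both POLII replicates held more factor summits than the 732 seen in replicate 2 alone. C-MYC replicates 1 and 2 had a summit inside 89.8% and 87.6% of the former and 75.4% and 74.9% of the latter. SOX2 replicates 1 and 2 had 87.6% and 60.5% against 72.7% and 50%. All 4 libraries had a summit inside 93 of the 177 (52.5%) and 287 of the 732 (39.2%), against 39.9% of all POLII replicate 2 peaks. The shorter peaks were not split in this way, so the difference is not shown to be particular to broad peaks. The median lengths of the 177 and the 732, 3013 and 3012 bp, hardly differed. The median POLII tags per kb in replicate 2 were 203 and 157, and the median fold enrichments 7.74 and 6.03. On distal chromosome 6 lay 23 of the 177 and 24 of the 732.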

How the data were processed

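ChIP-seq of iMOP cells was analysed from the peak lists that the authors deposited, called separately in each of 6 libraries. Per the file headers, each peak has a raw count of tags, not scaled for depth, a score of 10 times the −log10 of a p-value, a linear fold enrichment ratio over a background that is not named, and a start, end, length and summit in bases. The build is mm9 per the submitters' processing notes. The aligner, peak caller and control are not given in the sources used here. The totals were 1705241 to 4488517 tags in peaks.

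Broad peaks were those of POLII replicate 2 of at least 2500 bp. Overlap needed at least 1 bp, and a summit was counted when its base lay within the peak or the window. Shares have 95% Wilson intervals, which cover counting error only. Differences were tested by exact sign flips over 4 libraries. The tools were scipy 1.17.1, pandas 2.3.3, numpy 2.4.6 and matplotlib 3.10.9, under python 3.11.15, and on simulated peaks 7 of 7 quantities were recovered. The peaks and comparisons were chosen with earlier results of these data known. Single peaks were named by a rule (the 20 longest, and those with the most C-MYC or SOX2 summits). Alternatives were other length limits, windows, gaps and overlaps, the higher-scoring 50% of peaks, other sets of shorter peaks, and leaving out distal chromosome 6 or a replicate. The gene part of the rule was not used, since no mm9 annotation was at hand.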

Additional observations from a re-analysis of the deposited data

How the results depend on the processing

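Between antibodies, no paired analysis was possible because no result comes from a test between antibody groups. The replicate numbers of different antibodies were not used to pair libraries. The sign-flip test was paired in another sense, since it took broad minus shorter peaks within each of the 4 C-MYC and SOX2 libraries. Over 11 results, 74 values were computed again. Of these, 34 moved by more than the replicate spread, the main interval or 1.5 times the main count, and 40 did not. While 0 values changed sign, only the differences between broad and shorter peaks could do so, since counts, shares and densities cannot be negative. The share with a summit inside the peak, whose order turned against peaks of 1500 to under 2500 bp, was not computed again. With a length limit of 2000 bp and of 3000 bp, the number of broad peaks went from 909 to 2155 and 467, the C-MYC share in the 500 bp window from 57.0% to 62.6% and 52.5%, its difference from shorter peaks from -10.8 to -5.30 and -15.3 points, the C-MYC summits per kb from 0.243 to 0.310 and 0.199, the C-MYC share in the middle 50% of the length from 55.7% to 64.1% and 45.3%, that of SOX2 from 61.0% to 68.3% and 50.4%, and the share with another broad peak within 20 kb from 17.2% to 27.7% and 11.1%. SOX2 summits per kb went from 0.193 to 0.258 at 2000 bp. With the higher-scoring 50% of factor peaks, the C-MYC window share was 43.7%, its difference -6.68 points, summits per kb 0.172 for C-MYC and 0.136 for SOX2, and the shares in the middle 50% were 57.0% and 61.9%. A window of 250 bp gave 46.8% and -14.2 points for C-MYC, and of 1000 bp 67.7% and -3.71. The C-MYC difference was -15.5 points against peaks of 1500 to under 2500 bp and -18.7 against shorter peaks with at least the median fold enrichment of the broad ones. Without distal chromosome 6, C-MYC had 0.249 summits per kb and 56.4% in the middle 50%, and SOX2 61.9%. Gaps of 10 and 50 kb gave 11.9% and 28.8% with another broad peak nearby. The overlap with POLII replicate 1 was 9.79% by summits within 500 bp and 11.7% with its higher-scoring 50% of peaks. Leaving out a replicate moved the SOX2 window share between 37.5% and 65.5% and its difference between -12.6 and -1.51 points, so that without SOX2 replicate 2 little difference was left. The SOX2 difference of -7.08 points had too wide a replicate spread for other settings to exceed it, but it was -1.23 at the 2000 bp limit, -10.2 at 3000 bp, -4.19 with the higher-scoring 50%, -3.80 with the 1000 bp window, -14.3 against peaks of 1500 to under 2500 bp and -14.7 against those chosen by fold enrichment. The total reads per library are unknown, which limits comparisons of tag numbers between libraries.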

Other observations

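The broad peaks with the most POLII tags per kb were outside distal chromosome 6. Fold enrichments there ran from 1.95 to 3.88 over POLII replicate 2 and the libraries with a summit in them. In all broad POLII peaks the median was 6.35 for POLII replicate 2 and 5.29 to 7.47 for the other libraries. These peaks of high density were chosen after their values were seen. The peak at chr8:125950113-125954445 held 5883 POLII tags, the highest number of any broad peak, at 1357.7 tags per kb and a fold enrichment of 2, the lowest among the broad peaks. The summits inside it belonged to peaks of 553 and 577 tags in the C-MYC replicates with fold enrichments of 3.2 and 3.23, of 1133 tags and 3.88 in SOX2 replicate 2, and of 1066 tags and 3.23 in POLII replicate 1. The next peak on the same chromosome, chr8:125954817-125958021, held 2483 POLII tags with a fold enrichment of 2.69, and the only summit in it, of SOX2 replicate 1, belonged to a peak of 1682 tags with a fold enrichment of 3.58.

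A similar set of values was found at chr17:39979865-39985854, with 4056 POLII tags and a fold enrichment of 2.12. C-MYC replicates 1 and 2 had 1957 and 2071 tags there with fold enrichments of 3.78 and 3.65, and SOX2 replicates 1 and 2 had 6094 and 5952 tags with 1.95 and 2.45. The peaks of these 4 libraries were 6027 to 6069 bp long, close to the 5990 bp of the POLII peak. Libraries of different antibodies thus had peaks of nearly equal extent at this position. The background that gave these fold enrichments is not known from the lists, and what sets these 3 peaks apart was not tested.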
